A study of Sus scrofa with 12 samples.

Results

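The hepatic microRNA response to cold of Bama pigs was examined in 6 small RNA libraries of 12 in the series. They are all libraries labelled with this breed, 3 from pigs kept at -15 ± 2 °C and 3 from pigs kept at 23 ± 2 °C, and all entries of the deposited microRNA table were used. Bama and Hezuo are pig breeds, and the other 6 libraries hold the same pair of temperatures in Hezuo pigs. Every library came from liver RNA and is labelled day 15; under both temperatures the feed was described as balanced and the housing as dry and ventilated. The study set cold-treated pigs of each breed against pigs of the same breed at normal temperature, to find RNAs related to cold resistance. The sources used here give no sex, age, litter or sequencing batch. The labels number the pigs 1 to 3 at each temperature without saying whether a number is the same animal, so the p-values measure the spread between libraries. In the main test that spread was estimated over all 12 libraries of both breeds.

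MicroRNAs are short RNAs that guide Argonaute proteins to partly complementary sites in messenger RNAs, which are then degraded or translated less. Pairing depends mostly on the seed, the bases after the first base at the 5′ end, so microRNAs with the same seed share many targets. In the liver miR-122 dominates the hepatocyte pool, and miR-192, miR-194 and miR-148a are also abundant there. In cold-exposed mice the liver supplies fuels to heat-producing brown fat, whereas pigs lack a functional gene for the uncoupling protein of brown fat.

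Liver of cold-kept Bama pigs held more ssc-miR-29b, ssc-miR-29a-3p and ssc-miR-140-3p than liver of Bama pigs at normal temperature. It held less miR-181-y and less of miR-192-z, the longest form of the abundant hepatocyte microRNA miR-192. These were the 5 entries, of 460 tested, that passed an adjusted p of 0.05 in edgeR's quasi-likelihood test, which is 1.09% of those tested, with 3 higher (0.652%) and 2 lower (0.435%) under cold. The changes were between 1.45-fold and 2.24-fold. The prefix ssc marks porcine names, and x, y or z stands in place of an arm number in names taken from other species. The sequences of the 5 entries, with the seed (bases 2 to 8) in capitals, are shown because each belongs to a family of several listed entries.
ssc-miR-29b: tAGCACCAtttgaaatcagtgtt
ssc-miR-29a-3p: cTAGCACCatctgaaatcggtta
ssc-miR-140-3p: tACCACAGggtagaaccacggac
miR-181-y: aCCACCGAccgttgactgtacc
miR-192-z: cTGACCTAtgaattgacagccatt

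Listed counts totalled between 7184168 and 10032478 in cold libraries and between 7376256 and 7640451 in normal libraries. Values are given in CPM, listed counts scaled to a common library size after TMM normalization. The libraries carried the mark of liver, with ssc-miR-122-5p at 46.8% to 56.2% of listed counts in each of the 6. The normal library of pig 2 lay at -10.02 on the second principal component, where the others lay between -2.50 and 6.40. The table as used, with 2 lines emptied, listed 84.3% of its tags, against 86.6% to 87.9% in the others. The cold library of pig 2 stood as far out on the third component, at -9.98 where the others lay between 0.0571 and 3.88. Without the normal library of pig 2 no entry passed, so each change is also given without it. The cold library of pig 3 carried as much weight, since no entry passed without it either. Over all entries together, where abundant ones weigh most, replicate libraries differed by far more than counting error. Chi-squared over its degrees of freedom was 65.3 to 267 for pairs of replicates. These values do not cover rare entries singly, whose counting error was not set apart and may not be small.

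The miR-29 family is best known for repressing messenger RNAs of collagens and other matrix proteins. ssc-miR-29b stood at 27.6, 24.7 and 32.1 CPM in the cold libraries, against 12.8, 12.8 and 12.2 CPM in the normal libraries. Every cold library was near or above 2 times the normal ones, and the groups lay far apart. The mean was 28.1 ± 3.74 CPM under cold and 12.6 ± 0.341 CPM at normal temperature (SD, n = 3 each), a 2.24-fold difference (log2 1.16, SE 0.19, adjusted p = 0.0106, edgeR). Without the normal library of pig 2 the log2 difference of ssc-miR-29b was 1.15 with an adjusted p of 0.0693, and without the cold library of pig 3 it was 1.05 with an adjusted p of 0.107. The size of the change hardly moved while the call was lost.

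ssc-miR-29a-3p was the abundant member of the family, at 661, 669 and 699 CPM under cold against 481, 451 and 470 CPM at normal temperature. All cold values were above all normal values, and both groups were tight. Cold libraries averaged 676 ± 19.9 CPM and normal libraries 467 ± 15.1 CPM (SD, n = 3 each), a log2 difference of 0.53 (SE 0.12, adjusted p = 0.0409, edgeR). The call of ssc-miR-29a-3p was lost whichever of the 6 Bama libraries was left out, with adjusted p between 0.0582 and 0.181. Without the normal library of pig 2 its adjusted p was 0.0738 and its log2 difference 0.49, the lowest of these fits. In RefSeq's pig annotation (Sscrofa11.1) MIR29A lies beside MIR29B-1, and MIR29B-2 beside MIR29C.

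The other entries that hold the AGCACCA core were rare. In capitals below is that core, which begins at base 2 in ssc-miR-29b and at base 3 in ssc-miR-29a-3p, whose deposited sequence starts 1 base earlier.
ssc-miR-29b: tAGCACCAtttgaaatcagtgtt
ssc-miR-29a-3p: ctAGCACCAtctgaaatcggtta
ssc-miR-29c: tAGCACCAtttgaaatcggtta
miR-29-y: tAGCACCAtctgaaatcggttttt
ssc-miR-29c had 2.31, 2.04 and 2.39 CPM in cold libraries and 1.33, 1.68 and 1.81 CPM in normal libraries. Its groups did not overlap, but its log2 difference of 0.48 did not pass (adjusted p = 0.684, edgeR). miR-29-y had 2.60, 1.63 and 3.32 CPM in cold libraries against 1.06, 2.84 and 0.518 CPM in normal libraries, with overlapping groups (log2 0.77, adjusted p = 0.552). In all, 5 of 5 tested entries of the family were higher under cold, though miR-29-x, which has another seed, by only 0.01 on the log2 scale and by -0.061 with limma-voom. The family's median log2 difference was 0.53, beside 228 higher (49.6%), 231 lower and a median of -0.01 over the 460 tested. The summed level of the family was 696 to 739 CPM under cold and 472 to 500.1 CPM at normal temperature. The ratio of ssc-miR-29b to ssc-miR-29a-3p was also higher under cold, at a mean log2 of -4.60 ± 0.158 against -5.22 ± 0.0646 at normal temperature (SD, n = 3 each). The groups of that ratio did not overlap (two-sided exact permutation p = 0.1, the smallest that 3 against 3 allows; 0.3 after adjustment over 6 ratios).

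**Figure D1:**
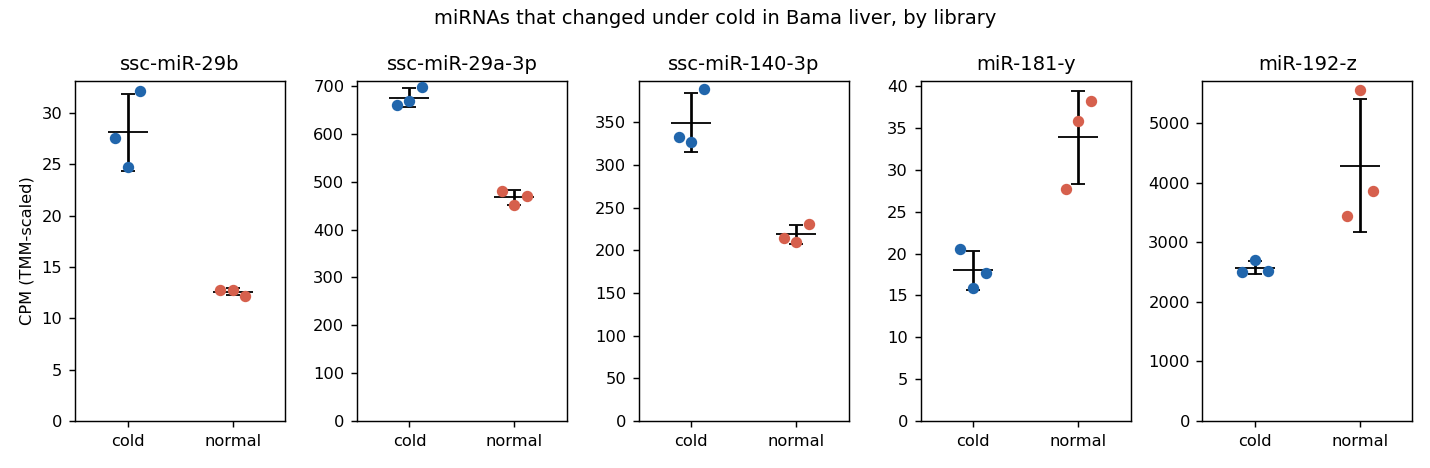
TMM-scaled CPM of the 5 microRNAs whose level changed, in each of the 3 cold (blue) and 3 normal (red) Bama libraries; horizontal bars are means and error bars SD. No panel has overlapping groups, and miR-192-z has 1 normal library, that of pig 2, at 5554 CPM.

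miR-140 is made from a gene inside WWP2 in the pig annotation, and in mice it is needed for normal cartilage. ssc-miR-140-3p had 332, 327 and 389 CPM in cold libraries and 215, 210.0 and 231 CPM in normal libraries. The lowest cold value was well above the highest normal value. The means were 349 ± 34.6 CPM under cold and 218 ± 10.9 CPM at normal temperature (SD, n = 3 each), 1.60-fold apart (log2 0.68, SE 0.12, adjusted p = 0.0106, edgeR). For ssc-miR-140-3p, leaving out the normal library of pig 2 gave a log2 difference of 0.63 with an adjusted p of 0.0693, and leaving out the cold library of pig 3 gave 0.59 with an adjusted p of 0.124.

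The opposite strand, ssc-miR-140-5p, was as abundant, with 398, 384 and 355 CPM under cold against 249, 228 and 327 CPM at normal temperature. Its groups were apart but close, and it missed the threshold (log2 0.50, SE 0.13, adjusted p = 0.0686, edgeR). The log2 ratio of 3p to 5p averaged -0.12 ± 0.218 in cold libraries and -0.28 ± 0.198 in normal libraries (SD, n = 3 each), with overlapping groups (two-sided exact permutation p = 0.6). miR-140-y, a longer form of the 3p strand that starts 1 base later, differed by 0.50 on the log2 scale (adjusted p = 0.251), and the rare miR-140-x by 0.37. All 4 entries of miR-140 were thus higher under cold (median log2 0.50), and 1 passed; their summed level was 732 to 766 CPM under cold and 452 to 571 CPM at normal temperature.

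miR-181-y belongs to the miR-181 family, whose main strand is known from work on lymphocyte development in mice, but its seed is not that of ssc-miR-181a. It had 20.5, 15.9 and 17.6 CPM in cold libraries and 27.7, 35.8 and 38.2 CPM in normal libraries. The groups did not overlap. Cold libraries averaged 18.0 ± 2.34 CPM and normal libraries 33.9 ± 5.53 CPM (SD, n = 3 each), so the entry was 1.88-fold lower under cold (log2 -0.91, SE 0.18, adjusted p = 0.0326, edgeR). Without the normal library of pig 2 the log2 difference of miR-181-y was -0.90 with an adjusted p of 0.0693. Of the 6 fits that left out a Bama library, only the one without the normal library of pig 1 kept it past the threshold (adjusted p = 0.0280).

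Main-strand members of the family moved less. ssc-miR-181a differed by -0.19 and ssc-miR-181b by -0.40 on the log2 scale (adjusted p = 0.322 for ssc-miR-181b, edgeR), while miR-181-x, a 3′-extended form, differed by -0.43 and ssc-miR-181d-5p by 0.00. The log2 ratio of miR-181-y to ssc-miR-181a averaged -3.91 ± 0.175 in cold libraries and -3.20 ± 0.369 in normal libraries (SD, n = 3 each). That ratio was lower in every cold library than in any normal one (exact permutation p = 0.1, the smallest possible; 0.3 after adjustment over 6 ratios). Over the family 1 tested entry was higher and 4 were lower, with a median log2 difference of -0.40.

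miR-192 is a hepatocyte microRNA that p53 induces in human cells, and its gene stands beside MIR194A in the pig annotation. Its mature strand was listed in forms that differ at the 3′ end. Capitals mark the bases after position 21, where the shortest form ends.
miR-192-z: ctgacctatgaattgacagccATT
miR-192-x: ctgacctatgaattgacagccAT
ssc-miR-192: ctgacctatgaattgacagcc
The 24-nt form miR-192-z had 2506, 2695 and 2514 CPM in cold libraries against 3446, 5554 and 3856 CPM in normal libraries. The cold values were close together, the normal values were wide, and the groups did not overlap. The means were 2572 ± 107 CPM under cold and 4285 ± 1118 CPM at normal temperature (SD, n = 3 each), 1.67-fold lower under cold (log2 -0.74, SE 0.16, adjusted p = 0.0409, edgeR). Without the normal library of pig 2, the highest of all, the log2 difference of miR-192-z was -0.53 with an adjusted p of 0.0703; it passed without the normal library of pig 1 and in no other fit that left out a Bama library.

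The shorter and more abundant forms differed less. miR-192-x, of 23 nt, had 29428, 33093 and 33330 CPM under cold and 35264, 49050 and 34582 CPM at normal temperature (log2 -0.31, adjusted p = 0.335, edgeR). ssc-miR-192, of 21 nt, had 19782, 20179 and 25893 CPM under cold and 23575, 25615 and 20953 CPM at normal temperature, with overlapping groups (log2 -0.09, adjusted p = 0.836; 0.0047 with upper-quartile scaling). Added over the entries that share their first 16 nt, miR-192 differed by -0.31 on the log2 scale (SE 0.13, adjusted p = 0.320), so the call rests on the longest form alone. Of 335 such sums 3 passed (0.896%), 2 higher (0.597%) and 1 lower (0.299%).

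As a share of the 3 forms and miR-215-z, whose 22 nt lie inside miR-192-x from its second base, the 24-nt form took 4.29%, 4.27% and 3.64% in cold libraries against 4.91%, 6.16% and 5.80% in normal libraries. The share of the 21-nt form averaged 34.4 ± 2.78% under cold and 31.2 ± 2.61% at normal temperature (SD, n = 3 each). The sources used here do not say how tags were divided among such forms. A shift toward shorter forms was not general among 89 pairs of entries in which the longer sequence extends the shorter. The longer entry had the higher log2 difference in 51 pairs and the lower in 36, with a median of 0.02. Some entries stand in more than 1 pair, so the pairs are not independent. Over the 7 tested entries of miR-192 and miR-215, 1 was higher and 6 were lower (median log2 -0.11).

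**Figure D2:**
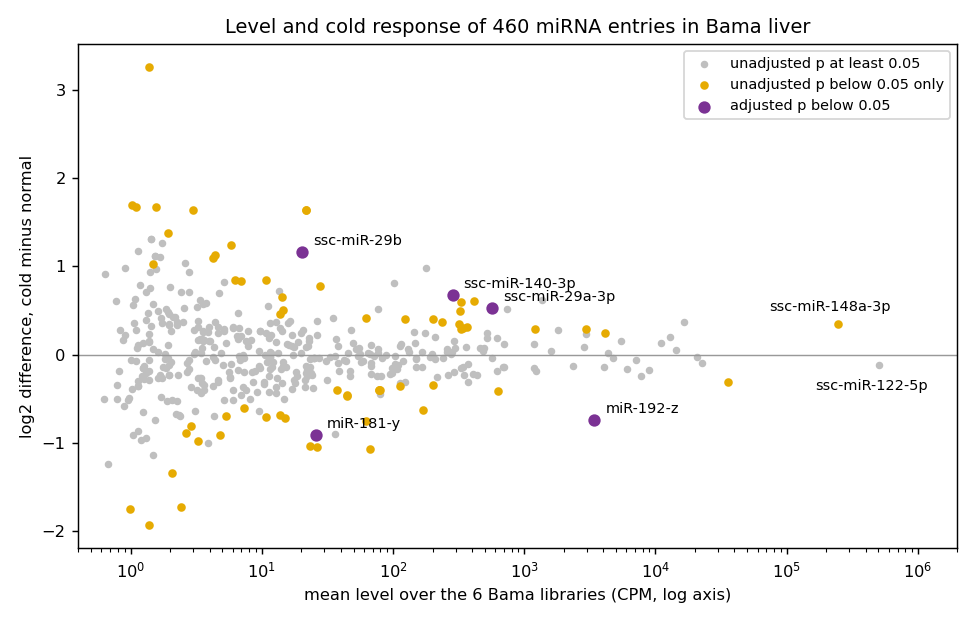
Mean level over the 6 Bama libraries (CPM, log axis) against the log2 difference, cold minus normal, for the 460 tested entries. The 5 entries with an adjusted p below 0.05 (purple) lie between 20.3 and 3428 mean CPM, and 67 entries had an unadjusted p below 0.05.

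How many entries passed depended on the test. Beyond the 5 calls, 67 of the 460 (14.6%) had an unadjusted p below 0.05, 37 higher (8.04%) and 30 lower (6.52%), and in 77 (16.7%) the groups did not overlap, with cold above in 41 (8.91%) and below in 36 (7.83%). DESeq2 called 20 entries, 12 higher and 8 lower, all 5 above among them; limma-voom called 3, and edgeR with the Bama libraries alone called 0, with 51 at an unadjusted p below 0.05.

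Next in order of p came entries that missed the adjusted threshold and are given as values. ssc-miR-7-5p, a microRNA best known from neurons and endocrine cells, had 537, 515 and 461 CPM in cold libraries against 396, 293 and 301 CPM in normal libraries. The groups were apart (log2 0.61, SE 0.15, adjusted p = 0.0552, edgeR). The nervous and endocrine marker list, which it dominates, summed to 668 to 791 CPM under cold and 411 to 561 CPM at normal temperature; 4 of its 7 tested entries were higher and 3 were lower, but those 3, ssc-miR-9, ssc-miR-9-1 and ssc-miR-9-2, have identical counts and are 1 measurement, and none of its entries was at 0 in all Bama libraries. In liver tissue as a whole, fewer cells of a type and less RNA per cell cannot be told apart. The part that cell mixture had in these differences was not tested.

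miR-126-y had 39.4, 30.9 and 34.6 CPM under cold and 18.5, 18.4 and 24.1 CPM at normal temperature (log2 0.78, adjusted p = 0.0552, edgeR). It is a rare relative, with other 3′ bases, of the endothelial ssc-miR-126-3p, whose gene lies within EGFL7. ssc-miR-126-3p itself had 15350, 13609 and 12384 CPM under cold against 11137, 12545 and 12265 CPM at normal temperature, with overlapping groups (log2 0.20, adjusted p = 0.418). Endothelial markers together summed to 12532 to 15516 CPM under cold and 11262 to 12682 CPM at normal temperature, and all 4 tested entries were higher, with a median log2 difference of 0.19.

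ssc-miR-378 lies, in 1 of its copies, within PPARGC1B, which encodes a coactivator of mitochondrial metabolism. It had 355, 397 and 444 CPM in cold libraries and 262, 272 and 256 CPM in normal libraries. The groups were well apart, but the adjusted p was 0.10 (log2 0.60, edgeR). Its 24-nt form miR-378-y had 13.3, 14.8 and 13.8 CPM under cold and 7.72, 9.80 and 5.70 CPM at normal temperature (log2 0.85, adjusted p = 0.0840). Of 5 tested entries of miR-378 and miR-422, 4 were higher and 1 was lower, with a median log2 difference of 0.56.

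ssc-miR-148a-3p, which restrains the LDL receptor in human and mouse liver cells, was the second most abundant entry. Its share of listed counts was 26.6%, 29.1% and 27.2% in cold libraries against 21.5%, 24.9% and 19.6% in normal libraries. The groups did not overlap, and the means differed by 5.65 percentage points (two-sided exact permutation p = 0.1; 0.16 after adjustment over 8 library measures). In the fit over all entries it did not pass (log2 0.35, SE 0.11, adjusted p = 0.143, edgeR). ssc-miR-152, of the same seed family, differed by -0.23.

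Among entries that were lower, ssc-miR-204, made within TRPM3, had 34.5, 56.7 and 38.6 CPM in cold libraries against 93.8, 70.8 and 106.6 CPM in normal libraries. The groups were apart (log2 -1.06, SE 0.25, adjusted p = 0.0552, edgeR). Its longer form miR-204-x, at 0.867, 2.04 and 0.531 CPM under cold against 3.19, 3.09 and 4.92 CPM at normal temperature, differed by -1.72 (adjusted p = 0.10). The opposite strand miR-204-y differed by -0.96 with overlapping groups, so all 3 tested entries were lower, and none passed.

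ssc-miR-455-5p, whose gene lies within the collagen gene COL27A1 and which promotes brown fat formation in mice, had 129, 169 and 102 CPM under cold against 193, 192 and 233 CPM at normal temperature (log2 -0.63, adjusted p = 0.0686, edgeR). ssc-miR-455-3p differed by -0.98 (adjusted p = 0.161) and miR-455-z by -0.91 (adjusted p = 0.322). Each of the 3 had cold values below all normal values, as did 7.83% of all entries tested, and none passed. ssc-let-7c, a growth-restraining let-7 member that lies beside MIR99A, had 507, 550.1 and 561 CPM under cold against 750.2, 651 and 756 CPM at normal temperature (log2 -0.41, adjusted p = 0.0552). It was not typical of its family, where 8 of 15 tested entries were higher and 7 were lower, with a median of 0.03.

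The remaining entries with the smallest p in each direction had adjusted p between 0.10 and 0.202 (edgeR). ssc-miR-574-5p, made within FAM114A1, differed by -0.71, ssc-miR-199b-5p, made within DNM1, by -0.75, miR-199-x by -1.03, miR-484-x by -0.70 and ssc-miR-184 by -1.05 on the log2 scale. ssc-miR-129b had the greatest log2 difference among the 20 entries plotted, 1.63, but 1 cold library stood far above the others. Its values were 16.3, 24.2 and 58.6 CPM under cold and 16.4, 9.02 and 6.48 CPM at normal temperature. The groups overlapped (adjusted p = 0.164, edgeR), and the lowest log2 difference with 1 Bama library left out was 0.93. Its counts are identical to those of ssc-miR-129a-5p in every library, so the pair is 1 measurement.

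**Figure D3:**
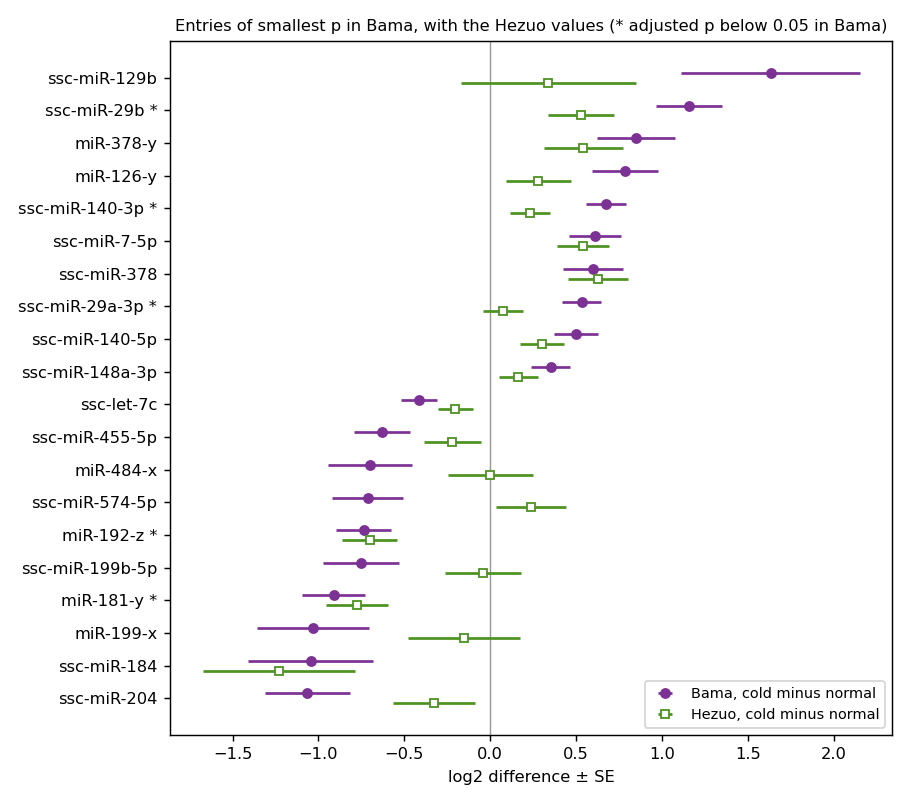
Log2 difference ± SE, cold minus normal, of the 10 entries per direction with the smallest p in Bama and a group mean no lower than 10 CPM; Bama (filled) and Hezuo (open), with an asterisk at the 5 entries that passed in Bama. miR-192-z and miR-181-y lie at nearly the same value in both breeds, whereas ssc-miR-29a-3p is at 0.53 in Bama and 0.07 in Hezuo.

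Counts were also added over entries with the same seed, which removes any uncertainty from dividing tags within a seed. Of 286 seeds tested, 3 passed (1.05%), 2 higher (0.699%) and 1 lower (0.35%), while 35 had an unadjusted p below 0.05 (12.2%) and 48 had groups that did not overlap (16.8%). The AGCACCA seed, with ssc-miR-29b, ssc-miR-29c and miR-29-y, was higher under cold, at 32.3, 28.8 and 35.7 CPM against 14.4, 17.4 and 15.4 CPM at normal temperature (log2 1.03, SE 0.20, adjusted p = 0.0268, edgeR). The ACCACAG seed, which ssc-miR-140-3p alone holds, was higher (log2 0.64, adjusted p = 0.0268), and the CCACCGA seed of miR-181-y was lower (log2 -0.95, adjusted p = 0.0286). These are largely the entries called singly and add no separate evidence for them. Next came the seed of ssc-miR-29a-3p (log2 0.50), that of ssc-miR-204, miR-204-x and miR-211-z (log2 -1.12) and that of ssc-miR-7-5p and miR-7-x (log2 0.59), each with an adjusted p of 0.0593.

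Other families are described by counts and medians. Of the miR-30 family, which is abundant in liver and restrains fibrosis in mice, 12 of 13 tested entries were higher under cold and 1 was lower, with a median log2 difference of 0.25. Differences of its abundant members were small, 0.24 for ssc-miR-30a-5p at 4336, 4484 and 4662 CPM under cold against 3632, 3873 and 3884 CPM at normal temperature, and -0.04 for ssc-miR-30d, which turned to 0.05 with upper-quartile scaling. None of the 13 passed. For miR-148 and miR-152, 7 of 9 were higher (median 0.31), and for miR-183, miR-96 and miR-182 all 3 were higher (median 0.52). Of the imprinted DLK1-DIO3 cluster 3 of 13 were higher and 10 were lower (median -0.46). For miR-15, miR-16, miR-195 and miR-497, 1 of 7 was higher (median -0.27). miR-194 had 1 of 5 higher (median -0.15) and miR-122 1 of 4 (median -0.13). No entry of these lists passed.

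**Figure D4:**
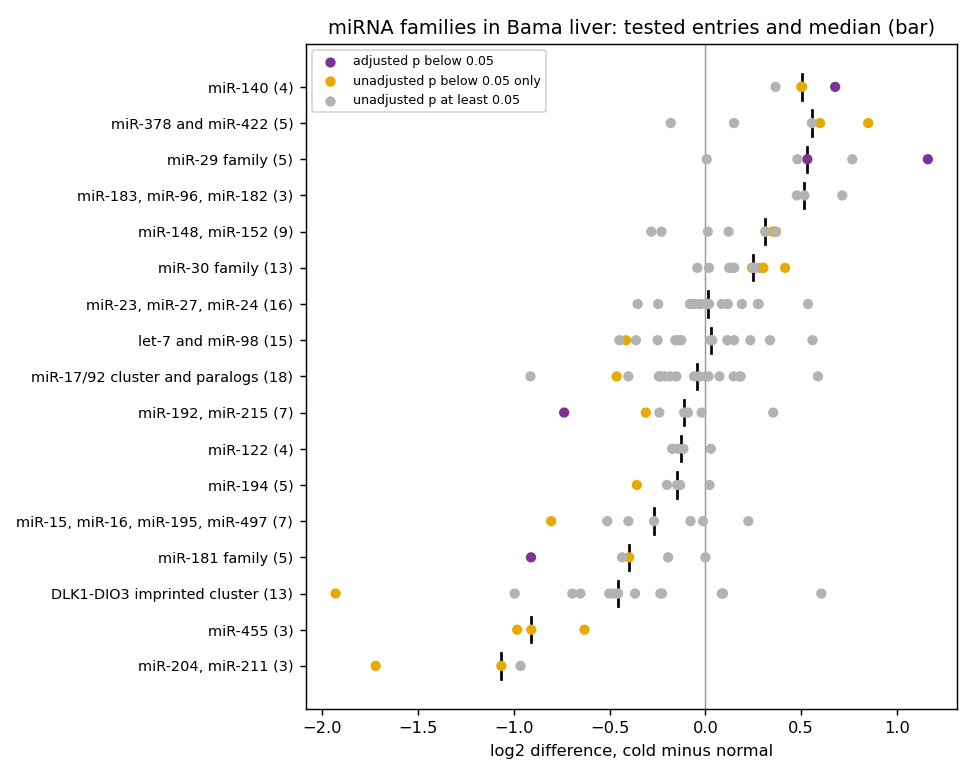
Log2 difference, cold minus normal, of each tested entry of 17 families (number tested in brackets), with the family's median as a black bar; purple marks an adjusted p below 0.05 and yellow an unadjusted p below 0.05 only. Medians run from 0.56 for miR-378 and miR-422 to -1.06 for miR-204 and miR-211, and the families with calls are miR-29, miR-140, miR-181 and miR-192.

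Lists of microRNAs by process showed no uniform direction. Of those linked to lipid and cholesterol metabolism, 38 of 52 tested entries were higher under cold (median log2 0.17). For glucose and insulin 35 of 56 were higher (median 0.11), and for brown fat and thermogenesis 33 of 54 (median 0.12). Of the fibrosis list 26 were higher and 26 lower (median 0.00), and in the hypoxia list 11 of 22 were higher. The inflammation list had 15 of 35 higher (median -0.10) and the p53 and oxidative stress list 11 of 31 (median -0.05). All calls in these lists are among the 5 above: the fibrosis list held 3, the glucose and insulin list 3, the inflammation list 1 and the p53 list 1, beside 5 of all 460 tested (1.09%).

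Summed markers of the main liver cell types overlapped between the groups. Hepatocyte markers summed to 794993 to 874683 CPM under cold and 800400 to 832531 CPM at normal temperature, with 5 of 15 tested entries higher and miR-192-z as the only call. Markers of stellate cells, fibroblasts and smooth muscle summed to 20856 to 28647 CPM under cold and 22176 to 30177 CPM at normal temperature, with 4 of 16 tested entries higher and a median of -0.11. Erythroid markers summed to 538 to 1343 CPM under cold and 440.2 to 995 CPM at normal temperature, with 4 of 5 higher. Myeloid markers summed to 570.3 to 832 CPM under cold and 529 to 799 CPM at normal temperature. Though 6 of 7 myeloid entries were higher, their sum had the lower mean under cold, 669 ± 142 CPM against 708 ± 155 CPM (SD). No marker entry of these lists was at 0 in all Bama libraries, and none of the other lists (lymphoid, biliary, muscle) held a call.

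None of 8 measures of a whole library's make-up could pass, since the smallest exact permutation p of 3 against 3 is 0.1. The lowest adjusted p was 0.16, so these tests cannot show that the make-up was unchanged. ssc-miR-122-5p took 49.0%, 46.8% and 50.0% of listed counts in cold libraries and 54.5%, 49.9% and 56.2% in normal libraries, with overlapping groups (two-sided exact permutation p = 0.2). Its log2 difference was -0.12 and did not pass (adjusted p = 0.743, edgeR). The 10 leading entries together took 90.5 ± 0.193% under cold and 90.3 ± 0.108% at normal temperature (SD, n = 3 each). The mean deposited length of the entries, weighted by their counts, was 22.50 ± 0.0115 nt under cold and 22.56 ± 0.0230 nt at normal temperature. The groups did not overlap (exact permutation p = 0.1, and 0.16 after adjustment over 8 measures). This is not the length of the sequenced tags. Entries of 22 nt, the length of ssc-miR-148a-3p, held 38.3% of listed counts under cold and 32.2% at normal temperature. Entries of 23 nt, the length of ssc-miR-122-5p, held 52.9% under cold and 58.6% at normal temperature.

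Entries named from other species took 6.63 ± 0.175% of listed counts under cold and 7.92 ± 1.12% at normal temperature, and 87.8 ± 0.195% of a cold library's tags stood in the table, against 85.9 ± 1.42% for normal libraries (SD, n = 3 each). Both pairs of groups lay apart (exact permutation p = 0.1 each; 0.16 adjusted). Without the normal library of pig 2 the difference was 1.06 percentage points in place of 1.88 for tags in the table, and -0.65 in place of -1.30 for names from other species. Of the entries named from other species, miR-192-x alone took 3.22 ± 0.175% of listed counts under cold and 4.06 ± 0.798% at normal temperature. The part of these whole-library differences in the entries' changes was not tested. Total tags were those implied by the deposited TPM. Tags outside the table may include those of the 2 lines that had been emptied before use, whose contents are unknown. With counts recomputed without ssc-miR-122-5p and ssc-miR-148a-3p, 4 of the 5 entries passed, and the log2 difference of miR-192-z was -0.72, close to its value with all counts, with an adjusted p of 0.0657. Shares of sequences that begin with T were 91.4 ± 0.351% under cold and 90.3 ± 1.0% at normal temperature, a difference of 1.14 percentage points that was 0.566 without the normal library of pig 2, and predicted microRNAs took 0.0184% under cold and 0.0174% at normal temperature.

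**Figure D5:**
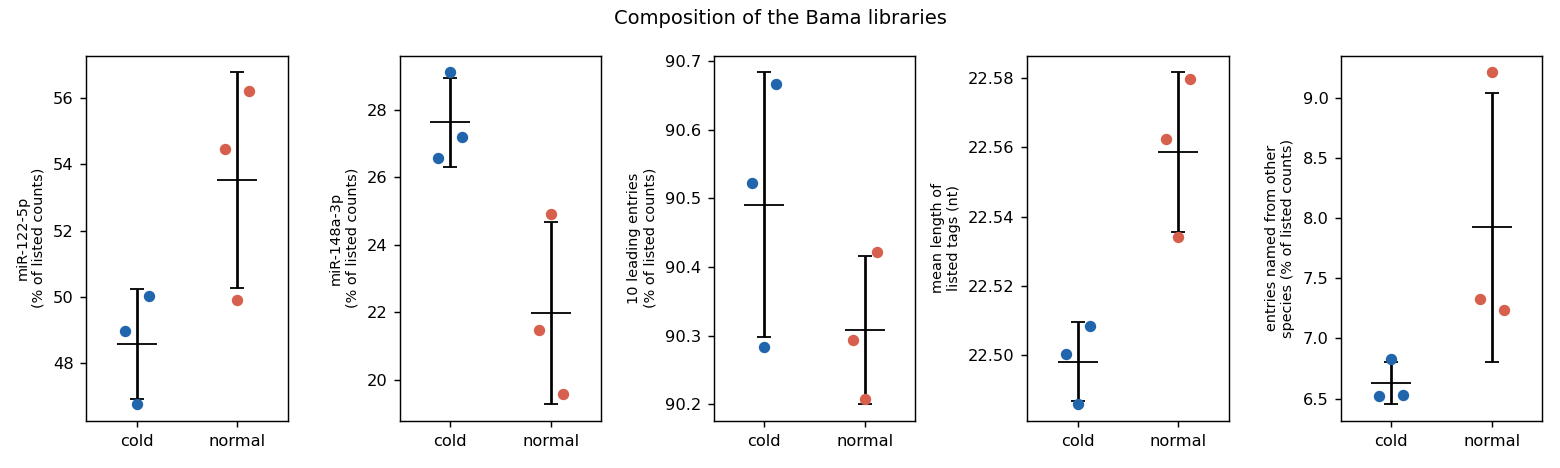
Make-up of each Bama library, cold (blue, left) and normal (red, right). Shares of ssc-miR-122-5p, ssc-miR-148a-3p, the 10 leading entries and entries named from other species are in percent of listed counts. Length is the mean deposited length of the entries, weighted by their counts, in nt. Bars are means and error bars SD (n = 3), and axes do not start at 0. The ssc-miR-148a-3p, length and foreign-name panels have groups that do not overlap.

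The Bama response was set against that of Hezuo, the same contrast in the other breed. No entry differed between the responses at an adjusted p of 0.05 by edgeR (0 of 460; 25 at an unadjusted p below 0.05, 5.43%), and DESeq2 and limma-voom also gave 0. The calls are therefore not shown to be particular to Bama. In Hezuo itself 0 entries passed, with 43 at an unadjusted p below 0.05 (9.35%). Both responses had the same sign in 302 of 460 entries (65.7%); in 13 (2.83%) the groups of both breeds lay apart in the same direction and in 0 in opposite directions.

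The 2 called entries that were lower in Bama had values in Hezuo of the same sign and near size. miR-192-z differed by -0.74 in Bama and -0.70 in Hezuo, where cold libraries averaged 4376 CPM and normal libraries 7113 CPM, and the Hezuo groups did not overlap (difference between breeds -0.04, SE 0.23, adjusted p = 0.998, edgeR; 0.05 with upper-quartile scaling). miR-181-y differed by -0.91 in Bama and -0.78 in Hezuo (difference -0.13, SE 0.26, adjusted p = 0.998). With standard errors of this size the data do not show that the breeds responded alike.

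The 3 called entries that were higher in Bama had smaller values in Hezuo, without a difference that passed. ssc-miR-29b differed by 1.16 in Bama and 0.53 in Hezuo (difference 0.63, SE 0.27, adjusted p = 0.766, edgeR). Its Hezuo libraries had 13.3, 16.5 and 17.1 CPM under cold and 8.93, 11.1 and 12.5 CPM at normal temperature. ssc-miR-140-3p differed by 0.68 in Bama and 0.23 in Hezuo (difference 0.44, SE 0.16, adjusted p = 0.766), and ssc-miR-29a-3p by 0.53 in Bama and 0.07 in Hezuo (difference 0.46, SE 0.16, adjusted p = 0.766).

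By the smallest p, the Bama response exceeded that of Hezuo most clearly for ssc-miR-29a-3p, miR-508-y (difference 1.58, SE 0.50) and ssc-miR-101 (difference 0.45, SE 0.16). It lay below that of Hezuo for ssc-miR-574-5p, at -0.71 in Bama and 0.24 in Hezuo (difference -0.95, SE 0.29), and for the single measurement listed as ssc-miR-9, ssc-miR-9-1 and ssc-miR-9-2 (difference -0.99, SE 0.41). All had an adjusted p of 0.766 (edgeR).

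Detection differed little. Of 774 entries, 528 had counts in every Bama library and 5 in none. Counts in all 3 cold and no normal library were found for 6 entries, and in all 3 normal and no cold library for 2, with at most 6 counts in any library.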

How the data were processed

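The authors deposited 1 table of 774 entries with raw tag counts and TPM for each of 12 libraries, per the file headers. TPM is scaled to the library's total tags, and only these totals were derived from it; tests used the deposited counts. Per the labels' protocols, TRIzol RNA was size-selected on a gel for molecules of microRNA length, ligated to adapters and amplified. Aligner, database and genome build were not given in the sources used here; 2 lines of the file had been emptied before use. Counts summed to 7184168 to 10384074 per library; PCR duplicates cannot be recognised.

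edgeR 4.0.16 (R 4.3.3; TMM scaling, filterByExpr by group, robust quasi-likelihood F tests) fitted all 12 libraries with 1 coefficient per group, so that both breeds share the estimate of spread (biological coefficient of variation 25%), and 460 entries were tested. P-values were adjusted by Benjamini-Hochberg over all entries, and adjusted p below 0.05 is a call. Sums over 286 seeds (bases 2 to 8) were tested the same way. DESeq2 1.42.0, limma 3.58.1 (voom) and other scalings, filters and left-out libraries were alternatives. Library measures were compared by exact permutation tests (Python 3.11.15, SciPy 1.17.1). The statistics were tested on simulated data, 1 set of 454 tested entries. The test found 14 of 55 entries changed 1.5-fold (25.5%) and 39 of 73 changed 2-fold (53.4%). It found 58 of 65 changed 4-fold (89.2%) and called 1 of 261 unchanged entries. Entries that did not pass are therefore not shown to be unchanged.

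Named entries are the calls, the 10 of smallest p per direction with at least 10 CPM in a Bama group, the 10 most abundant, up to 3 abundant members of a list, other forms and strands of the calls, members of called seeds, and the 3 of smallest p per direction for the difference between breeds. Members and lists were chosen with earlier results of these data known. Identical counts were found for 47 entries (20 distinct profiles). Gene neighbours come from RefSeq's pig table (Sscrofa11.1), used for names only.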

Additional observations from a re-analysis of the deposited data

How the results depend on the processing

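The alternatives are given by their number of calls of any entry, against 5. DESeq2 scaling gave 5. Upper-quartile scaling, no filter, dropping ssc-miR-122-5p with ssc-miR-148a-3p and collapsing identical entries gave 4 each. A mean of at least 10 counts, limma-voom and sums over the first 16 nt gave 3 each. Scaling by library totals gave 1 (ssc-miR-29b), DESeq2 gave 20 and the Bama libraries alone gave 0. With upper-quartile scaling all 4 calls were higher, which moves the split from 3 higher and 2 lower. They were ssc-miR-29a-3p, ssc-miR-140-3p, ssc-miR-29b and ssc-miR-7-5p, the last of which is not among the 5. With that scaling miR-181-y (adjusted p = 0.0552, edgeR) and miR-192-z (adjusted p = 0.0580) did not pass. Leaving out 1 library gave 0 to 8 calls; 0 came without the Bama normal library of pig 2 or the cold library of pig 3, and 2 without the Bama cold library of pig 1, the Hezuo normal library of pig 1, or the Hezuo cold library of pig 1 or 3. The 8 calls came without the Hezuo normal library of pig 2, and leaving out a Hezuo library was chosen after seeing the data. For seeds, against 3, upper-quartile scaling and no filter gave 5, DESeq2 12, the Bama libraries alone 0 and leaving out 1 Bama library 0 to 6. The difference between breeds gave 0 calls in every setting run. The cause was not tested, except that fewer libraries entered some fits.

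Same-numbered Bama libraries correlated at 0.168, 0.00785 and 0.0335 in their deviations from the group means. Libraries with unlike numbers correlated at -0.0993 to 0.0506. With 3 libraries per group such values cannot tell whether a number is the same animal. With the replicate block (pig number within breed) 3 entries passed, ssc-miR-29b, ssc-miR-140-3p and miR-192-z, and 0 seeds. ssc-miR-29a-3p (log2 0.53, adjusted p = 0.0601) and miR-181-y (log2 -0.90, adjusted p = 0.10) did not pass, with nearly the same log2 differences as without the block.

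Signs turned only among small differences. Upper-quartile scaling gave log2 differences of 0.0047 for ssc-miR-192, 0.051 for ssc-miR-30d, 0.068 for ssc-miR-143-3p and 0.070 for ssc-miR-9-1 and ssc-miR-9-2. miR-29-x gave -0.0088 with no filter, -0.061 with limma-voom, -0.021 collapsed, -0.029 with the replicate block and -0.032 over the first 16 nt. ssc-miR-181d-5p gave -0.0049 with DESeq2 scaling, -0.019 with no filter, -0.0067 with a mean of 10, -0.0076 with DESeq2, -0.023 with limma-voom, -0.0054 with Bama alone, -0.032 collapsed, -0.0087 with the block and -0.047 over the first 16 nt. The difference between breeds for miR-192-z gave 0.045 with upper-quartile scaling and 0.0021 with the block. Without 1 library the ranges were -0.0018 to 0.22 for ssc-miR-101, -0.0090 to 0.10 for ssc-miR-26a, -0.086 to 0.018 for ssc-miR-30d, -0.17 to 0.19 for ssc-miR-143-3p, -0.33 to 0.22 for ssc-miR-9-1 and ssc-miR-9-2, -0.30 to 0.16 for miR-29-x, -0.13 to 0.10 for ssc-miR-181d-5p and -0.21 to 0.15 for the difference between breeds of miR-192-z. The share of predicted microRNAs, 0.0010 percentage points higher under cold, gave -0.0016 without ssc-miR-122-5p and -0.00022 to 0.0016 without 1 library.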
